A study of Mus musculus with 3 samples.

Results

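The cells described here are spinous suprabasal keratinocytes of mouse skin, the living layers of the epidermis that lie just above the basal layer. They were chosen from the counts themselves. A member had at least 800 unique molecular identifiers (UMIs, counted RNA molecules), at least 300 genes and at most 20% mitochondrial UMIs. Krt1 and Krt10 together made up at least 1% of its UMIs, Lor, Flg and Flg2 together stayed under 10 UMIs, and Krt79 and Cst6 together under 5 UMIs. The rule kept 958 of 23292 filtered cells. The values of these 7 genes chose the members and are given as a description only, and the genes that vary with them in the same cells were not independent of the choice.

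The skin came from C57BL/6 mice at postnatal week 7, labelled by agent as control, metformin or Shi-Bi-Man, in a study of a natural product and hair growth. Counts of single-cell 3' RNA libraries were analysed for control and metformin, 1 library each, and Shi-Bi-Man was not analysed here. The labels give no dose, number of animals or hair cycle stage, and one protocol field speaks of cynomolgus monkey although strain and gene identifiers are those of mouse. With 1 library per agent, agent, animal and preparation cannot be told apart, so no test between agents was made and every interval below covers counting error only, at 95%.

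Basal keratinocytes divide on the basement membrane and carry the keratin pair Krt5 and Krt14. Cells that leave this layer switch to the pair Krt1 and Krt10, build many desmosomes, and begin to make the lipids and proteins of the skin barrier. Granular cells above them carry loricrin and filaggrin, the proteins of the cornified envelope and its keratin matrix, before they die as corneocytes.

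Members numbered 555 of 11554 filtered control cells (4.80%, Clopper-Pearson interval 4.42 to 5.21) and 403 of 11738 filtered metformin cells (3.43%, 3.11 to 3.78). The gap of -1.37 percentage points was -0.73 among cells with 300 to 3000 genes and at most 8% mitochondrial UMIs. The members' median depth was 9406 UMIs and 2514 genes in control, and 8722 UMIs and 2354 genes in metformin. Depth ran from 826 to 25273 UMIs in control members and from 920 to 27634 in metformin members. The whole libraries held 71345558 and 92341365 UMIs over 12108 and 12092 barcodes. They shared 41 barcodes, and no barcode was a member in both. Scrublet, a doublet caller, marked 51 control members (9.19%) and 27 metformin members (6.70%), which were kept. The T cell class had at least 5 UMIs of T cell genes. Krt5 and Krt14 together, and Col1a1, Col1a2 and Dcn together, were each under 0.2% of its cells' UMIs. This class is not expected to make epidermal keratins. It carried Krt10 at 2520 CPM (counts per 1000000 UMIs, over the summed counts of the class) in control and 713 in metformin. Krt10 was detected in 17.5% of its 548 control and 11.5% of its 615 metformin cells. Fibroblasts went the other way, with Krt10 in 25.6% of 3893 control and 32.9% of 1852 metformin cells. With cells thinned to one depth, as described below, the fibroblast shares were alike, at 18.1% in control and 18.7% in metformin. The thinned T cell shares were 12.7% and 9.30%. Carried Krt10 was thus not lower in metformin in both classes. Whether free RNA or droplets with more than 1 cell carried this Krt10 was not tested.

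The limit on Krt79 and Cst6 decided most of the selection. It was met or passed by 912 control and 403 metformin cells that satisfied every other condition. Krt79, a keratin of the upper hair follicle, reached 5 UMIs in just 16 and 13 of these, so the limit acted through Cst6, a cysteine protease inhibitor. Members therefore made up 35.6% of the control and 48.7% of the metformin cells with Krt1 and Krt10 at 1% or more. Without the cells with Krt79 at 5 UMIs or more, those above the limit are called Cst6-rich below and numbered 896 in control and 390 in metformin. Their median depth was 13350 and 12210 UMIs, above that of the members, and a limit in UMIs removes deep cells more readily. When Krt79 alone was held under 5 UMIs, a choice made after seeing the data, 1451 control (12.6%) and 793 metformin cells (6.76%) qualified.

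**Figure D1:**
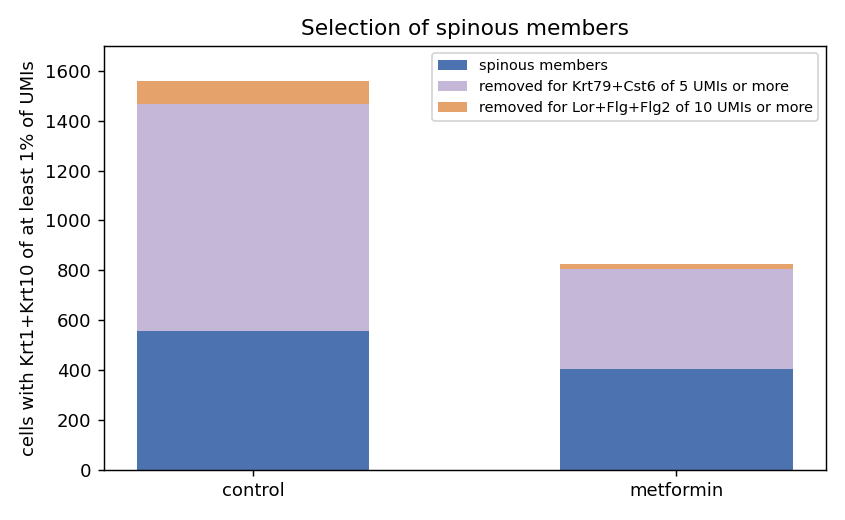
Number of cells in which Krt1 and Krt10 made up at least 1% of UMIs (vertical axis, cells), by library. Blue marks the 555 control and 403 metformin members, violet the 912 and 403 cells removed by the Krt79 and Cst6 limit alone, and orange the 93 and 21 removed by the Lor, Flg and Flg2 limit, so the members make up 35.6% and 48.7% of the bars.

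The 37 control and 40 metformin members with Krt1 and Krt10 at 1 to 1.1% of UMIs had medians of 1.05% and 1.06%. The 30 and 44 cells at 0.9 to 1% that met the other conditions had medians of 0.947% and 0.954%. At the Krt79 and Cst6 limit, 118 control and 59 metformin members had 4 UMIs, and 106 and 51 otherwise eligible cells had 5. Lor, Flg and Flg2 were all at 0 UMIs in 508 control and 382 metformin members, and no member had more than 7.

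The label was compared with 4 markers that the rule did not use, Krtdap, Sbsn, Krt77 and Mt4. Every cell was thinned to 2000 UMIs to compare shares at one depth. Krtdap, a small secreted protein of differentiating keratinocytes, was then detected in 98.7% of the 530 control members left and 97.2% of the 390 metformin members left (99.1% and 99.3% unthinned). The thinned share was 9.77% and 5.44% in fibroblasts, whose median depth was 2706 and 3605 UMIs, and 14.6% and 8.62% in T cells. Sbsn, suprabasin, was detected in 93.8% and 93.3% of thinned members, Krt77, a type II suprabasal keratin, in 84.3% and 89.7%, and Mt4, the metallothionein of stratified epithelia, in 89.1% and 84.9%. For Mt4 the T cell share was 2.96% and 3.63%. All 4 markers were thus detected in most members, at shares above those in fibroblasts and T cells. Both of those classes were held under 0.2% Krt5 and Krt14, so their shares can understate carried keratinocyte RNA. The 4 markers vary with Krt1 and Krt10, so the members' shares are a description and no independent check. Thinned early differentiating cells, defined below, had Krtdap in 72.2% and 63.7% and Sbsn in 64.4% and 68.3%. They had Krt77 in 38.9% and 43.1% and Mt4 in 61.7% and 51.5%. Cst6-rich cells had Krtdap in 99.7% and 100%, Sbsn in 99.9% and 99.5% and Krt77 in 94.8% and 97.9% of thinned cells. These 3 markers therefore do not set members apart from the nearest class. Mt4 was detected in 82.6% and 85.1% of thinned Cst6-rich cells, below members in control and alike in metformin.

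Krt10, Krtdap, Krt77 and Sbsn climbed by steps from basal to granular cells, and Mt4 did not. Basal cells are those with Krt5 and Krt14 at 1% of UMIs or more and Krt1 and Krt10 under 0.2% (1265 control, 2070 metformin). Early differentiating cells keep Krt5 and Krt14 at 1% or more and hold Krt1 and Krt10 at 0.2 to 1% (181 and 264). In both classes Lor, Flg and Flg2 together were under 10 UMIs, and Krt79 and Cst6 together under 5. The follicle genes Krt17, Krt75, Cd34 and Lgr5 together were also under 5 UMIs there. Granular cells have Krt1 and Krt10 at 1% or more and Lor, Flg and Flg2 at 10 UMIs or more (91 and 18). The granular class was widened after seeing the data to cells with Krt79 under 5 UMIs, because the limit on Cst6 left 2 and 1 cells. The step values describe cells sorted by related genes and are no test. Metformin granular cells carried fibroblast markers at a sum of 2715 CPM, against 323 in control. Melanocyte markers were at 381 against 0.714 CPM and basal genes at 1408 against 235. T cell markers, at 98.1 against 125, and myeloid markers, at 31.4 against 61.4, were lower. The part of other cells' RNA in the metformin granular values was not tested.

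Krtdap (ENSMUSG00000074199, chr7:30787896-30791097, plus strand, GRCm38) stood at 368 CPM in control basal cells, 3835 in early cells, 12262 in members (Poisson interval 12166 to 12358), 19569 in Cst6-rich cells and 36118 in granular cells. The metformin values were 295, 3007, 10807, 17506 and 28475 CPM. Each step up was present in both libraries, and members exceeded basal cells by 5.06 on the log2 scale in control and 5.20 in metformin. Krt77 (chr15:101858731-101869705, minus strand) ran from 40.2 through 399 to 3406 CPM in control members and on to 11768 and 28397. In metformin it ran from 48.9 through 574 to 4689, 12478 and 28459. Members held far less Krt77 than granular cells in either library. Sbsn was at 135 CPM in basal cells of both libraries, at 2673 and 2483 in control and metformin members, and at 18226 and 14706 in granular cells.

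Mt4 (chr8:94137197-94139031, plus strand) peaked in the middle of this series. It measured 114, 1365, 3484, 2811 and 221 CPM from basal to granular cells in control, and 135, 1033, 2753, 2765 and 612 in metformin. In control the members held its highest level, and in metformin members and Cst6-rich cells were alike. Its relatives Mt1 and Mt2, metal-binding proteins found in most tissues, went down from the basal layer on. Mt1 was at 6052 CPM in control basal cells, 4004 in members and 269 in granular cells, and at 5224, 2953 and 447 CPM in metformin. Mt2 was at 2974, 1564 and 102 CPM in control and 2692, 1099 and 196 in metformin. Members thus combined the highest or near highest Mt4 with Mt1 and Mt2 at levels between those of early and Cst6-rich cells.

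For the genes of the rule, Krt1 measured 119, 2521, 7974, 10010 and 9619 CPM from basal to granular in control, and 133, 2516, 6686, 8148 and 8238 in metformin. Krt10 measured 124, 2260, 11683, 21173 and 34336 in control and 128, 2399, 10690, 19779 and 33622 in metformin. Krt1 differed little between Cst6-rich and granular cells, while Krt10 was higher again in granular cells.

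**Figure D2:**
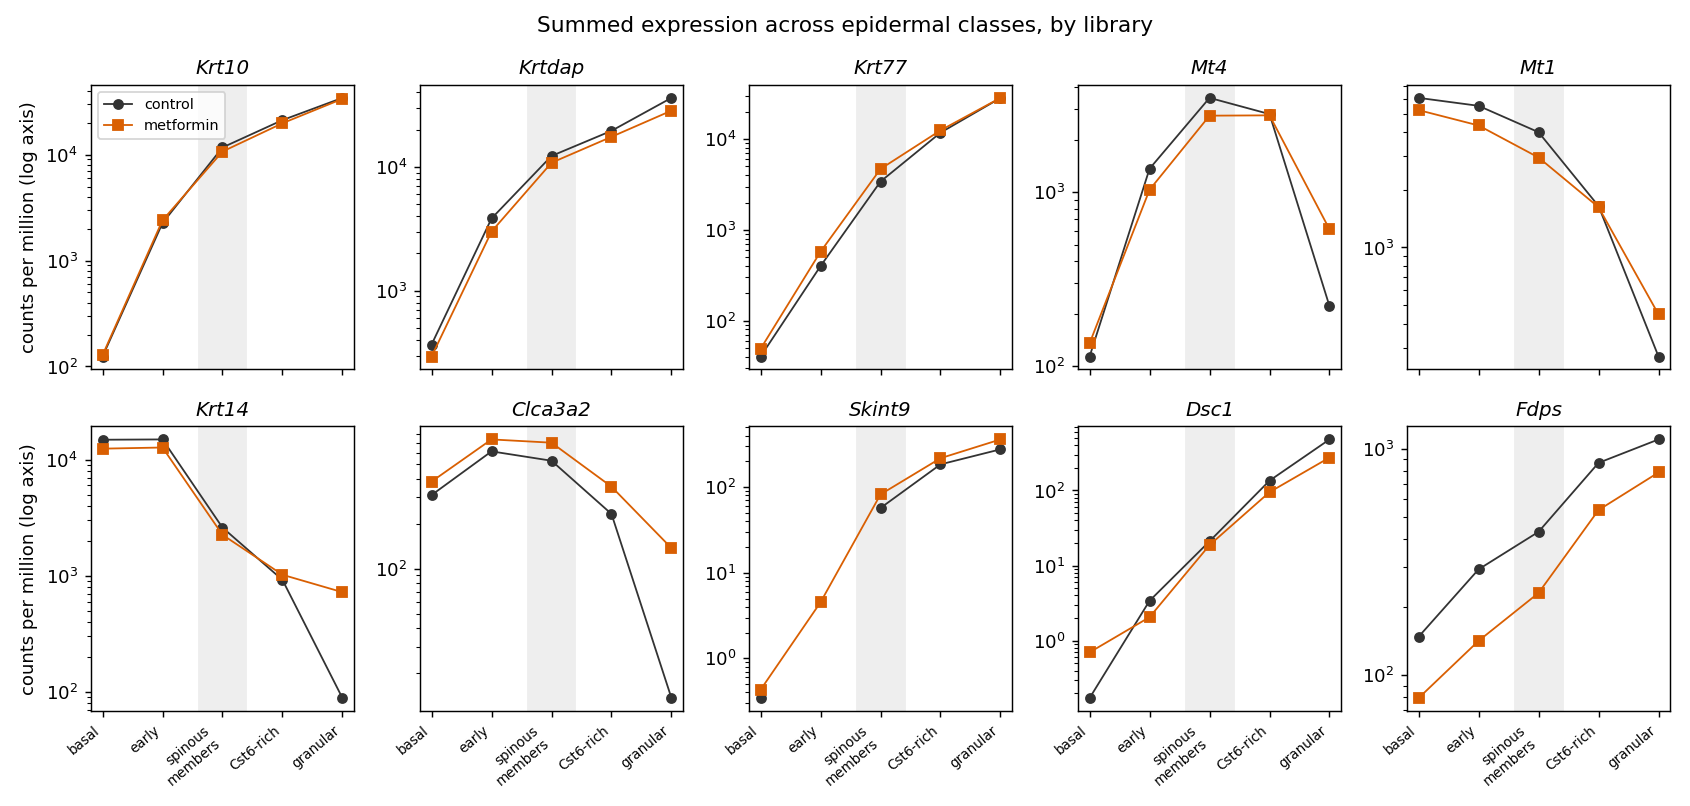
CPM (log axis) of 10 genes in 5 epidermal classes ordered from basal to granular, 1 line per library (black control, orange metformin), with the members shaded. Krt10, Krtdap and Krt77 climb at every step, Mt4 is highest around the members (3484 CPM in control), and Mt1 and Krt14 go down; Skint9 had no UMI in control early cells and that point is not drawn.

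The proximal promoters of the genes highest in members over basal cells were read to show the DNA beside these values. The rule for naming genes took the 20 genes with the highest mean log2 fold over basal cells at 50 CPM or more. The RefSeq table for GRCm38.p6 held 15 of them. Windows of 250 bases before to 50 bases after the start were searched on both strands for the AP-1 motif TGANTCA, which Fos and Jun proteins bind, and for the grainyhead motif AACNGGTT. AP-1 letters stood in 2 of 15 promoters (13.3%), against 7.93% of the 27025 promoters in the table. Grainyhead letters stood in 0 of 15, against 2.01%. The 2 promoters with AP-1 letters belong to Krtdap and Sprr1b, a cornified envelope precursor, and are printed as the 250 bases before the start, 5' to 3' on the gene's strand, with the motif in capitals. They lie at chr7:30787655-30787904 (plus) and chr3:92438780-92439029 (minus), and the motif begins 81 and 111 bases before the start.
Krtdap: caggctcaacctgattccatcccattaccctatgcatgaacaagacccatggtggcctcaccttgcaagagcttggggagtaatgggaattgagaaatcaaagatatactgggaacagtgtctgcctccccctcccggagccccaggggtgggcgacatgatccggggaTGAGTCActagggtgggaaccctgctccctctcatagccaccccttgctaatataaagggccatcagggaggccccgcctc
Sprr1b: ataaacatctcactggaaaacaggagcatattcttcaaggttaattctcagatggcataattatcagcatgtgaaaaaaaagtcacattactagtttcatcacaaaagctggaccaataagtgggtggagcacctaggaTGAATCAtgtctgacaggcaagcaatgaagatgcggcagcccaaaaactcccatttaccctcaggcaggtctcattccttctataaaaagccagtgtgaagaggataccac
A match of letters is a description of the window and shows no binding.

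Several of the other genes highest over basal cells are given here with their levels. Skint9, of a gene family of epidermal surface proteins related to butyrophilins, was at 0.344 CPM in control basal cells, 57.1 in members, 184 in Cst6-rich and 276 in granular cells. The metformin values were 0.430, 82.3, 218 and 361 CPM. Its log2 fold over basal was 7.37 and 7.58. Krt78, a type II keratin of upper layers, was at 94.1 and 87.5 CPM in members against 0.861 and 0.484 in basal cells and 875 and 820 in granular cells. Ly6g6c, a small protein of the Ly6 family, was at 747 and 676 CPM in members, a log2 fold over basal cells of 5.96 and 6.08. Elovl4, the elongase that makes very long fatty acids for barrier ceramides, was at 406 and 389 CPM against 8.87 and 7.75. Acer1, the alkaline ceramidase of the epidermis, was at 140 and 128 CPM against 2.58 and 2.80. For each of these genes the 2 libraries gave folds of the same direction and like size. 4833423E24Rik, Ly6g6e, Rhov, Sdr16c5, Them5, Gm94, Asprv1, Pla2g4f and Ankrd35 completed the 20, with log2 folds between 4.16 and 7.02.

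Gene lists of the differentiation programme lay to one side. All 10 measured Skint genes, all 15 cholesterol synthesis genes and 16 of 16 (control) or 13 of 15 (metformin) barrier lipid genes were higher in members than in basal cells. Of all genes measured, 4753 of 9804 in control and 4794 of 10319 in metformin were higher, with medians of -0.02 and -0.05 on the log2 scale. The cholesterol list had medians of 1.27 and 1.06. Fdps, which makes farnesyl diphosphate, measured 148, 293, 430, 865 and 1097 CPM from basal to granular in control and 79.4, 142, 231, 536 and 785 in metformin. Desmosome genes were higher in 9 of 11 in both libraries. Within the desmosome the cadherins differed in direction. Dsg1a was at 133 CPM in control basal cells and 825 in members, and Dsc1 at 0.172 and 21.1, while Dsg3, the basal desmoglein, was at 58.7 and 26.8. In metformin Dsg1a was at 128 and 737, Dsc1 at 0.700 and 18.8, and Dsg3 at 59.1 and 24.0 CPM. Transcription factors of differentiation were higher in 16 of 20, among them Ovol1, a zinc finger factor, at 119 and 408 CPM in control and 85.2 and 259 in metformin. Hes1, a target of Notch signalling, was at 59.9 and 149 CPM in control and 61.5 and 176 in metformin, while the 10 measured Notch pathway genes were split evenly, 5 higher in each library.

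All 16 cell division genes and all 13 basal genes were lower in members in both libraries. Krt5 and Krt14 are among the 13 and chose the basal class, so their direction was set by that choice. Genes that vary with them were not independent of it. Dlk2, a transmembrane protein of the delta-like family, had the lowest ratio, 71.3 CPM in basal cells against 0.394 in members in control and 71.9 against 0.866 in metformin, from 2 and 3 UMIs. Itga3, the integrin chain that binds laminin-332, was at 140 and 7.09 CPM in control and 125 and 8.08 in metformin. Lamb3, a chain of that laminin, was at 122 and 7.09 in control and 118 and 7.22 in metformin. Slco2a1, Birc5, Ube2c, Jag2, Cdk1, Cbr2 and Hist1h2ae were the other genes with the lowest ratios.

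Members differed from granular cells by the late programme. Hrnr, hornerin of the cornified layer, was at 0.985 CPM in control members and 2466 in granular cells, and at 2.31 and 1126 in metformin. Cnfn, cornifelin, was at 6.70 and 2687 CPM in control and 3.46 and 1342 in metformin. Lypd5, Serpina12, Wfdc21, Klk6 and Nccrp1 were the others lowest against granular cells outside the rule. Clca3a2 and Ano1 were among the 10 genes highest over granular cells, and Clca3a2 was highest in early cells. Clca3a2, of the calcium-activated chloride channel regulator family, measured 311, 611, 529, 233 and 13.6 CPM from basal to granular in control and 383, 735, 699, 354 and 137 in metformin. Ano1, a calcium-activated chloride channel, measured 55.7 CPM in control members and 4.29 in granular cells, and 56.9 and 3.92 in metformin, above its basal levels of 27.6 and 22.2. The metformin granular values rest on 18 cells, which also carried fibroblast and melanocyte markers as given above.

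Against Cst6-rich cells the members kept more of the basal programme. Col17a1, the hemidesmosome collagen, was at 286 CPM in control members and 68.8 in Cst6-rich cells, and at 320 and 99.9 in metformin. Itga6, its integrin partner, was at 125 and 39.7 CPM in control and 143 and 58.7 in metformin. Ccl27a, a skin chemokine for lymphocytes, was at 221 CPM in control and 264 in metformin members, above Cst6-rich cells by 2.07 and 1.38 on the log2 scale. In the other direction stood the proteases of desquamation. Klk7 was at 13 CPM in control members and 198 in Cst6-rich cells, and at 41.9 and 231 in metformin. Klk5 was at 24.0 and 199 CPM in control and 37.5 and 200 in metformin. Sprr1b was at 196 and 1056 CPM in control and 91.8 and 555 in metformin. Involucrin (Ivl), an early envelope protein, was at 18.3 and 149 CPM in control and 28.9 and 113 in metformin. Genes against Cst6-rich cells were ranked on this difference after seeing the data, so it is a description. The 13 basal genes summed to 4961, 1716 and 235 CPM in control members, Cst6-rich and granular cells, and to 5240, 2266 and 1408 in metformin. The 21 Lce and Sprr genes summed to 511, 1720 and 5832 CPM in control and 343, 1078 and 3734 in metformin. By these sums the Cst6-rich cells lay between members and granular cells.

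Members were not uniform in what they kept of the basal keratins. Krt5 and Krt14 together had at most 2 UMIs in 289 control and 212 metformin members. They made up 0.2% of UMIs or more in 190 control members (34.2%, interval 30.3 to 38.3) and 136 metformin members (33.7%, 29.1 to 38.6), and at least 1% in 68 and 44. The 0.2% line was set after seeing the data and cuts a range, with 81 and 43 members close to it. Median depth was 10007 and 9626 UMIs in members at or above the line, and 9129 and 8461 below it. Doublet calls were 8.95% and 3.68% at or above it, and 9.32% and 8.24% below.

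Several genes went with the basal keratins in both libraries. S100a6, a calcium-binding protein, was at 1242 CPM at or above the line and 366 below it in control, and at 1510 and 442 in metformin, a log2 difference of 1.76 and 1.77. Stfa3, a stefin protease inhibitor, differed by 2.20 and 2.37, Epgn, an EGF receptor ligand, by 1.33 and 1.29, and Aqp3, a glycerol and water channel, by 1.25 and 0.95. Col17a1 differed by 1.09 and 1.06. Krt6a, a stress and companion layer keratin, differed by 3.30 and 6.16, but was detected in 9.19% and 5.96% of members and 94 of its 387 control UMIs lay in 1 cell. On the other side stood suprabasal genes. Krt77 was lower at or above the line by 2.03 and 1.70, given as log2 values of -2.03 and -1.70. Krt78 differed by -4.15 and -3.57, Skint9 by -3.30 and -2.82, Alox12e, a lipoxygenase, by -3.88 and -3.49, Them5, a thioesterase, by -2.05 and -1.95, and Rhov, a small GTPase, by -1.47 and -1.89. Collagen genes of fibroblasts were also lower there, with Col1a1 at -1.73 and -3.02. Members below the line carried both the upper spinous genes and more fibroblast RNA.

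**Figure D3:**
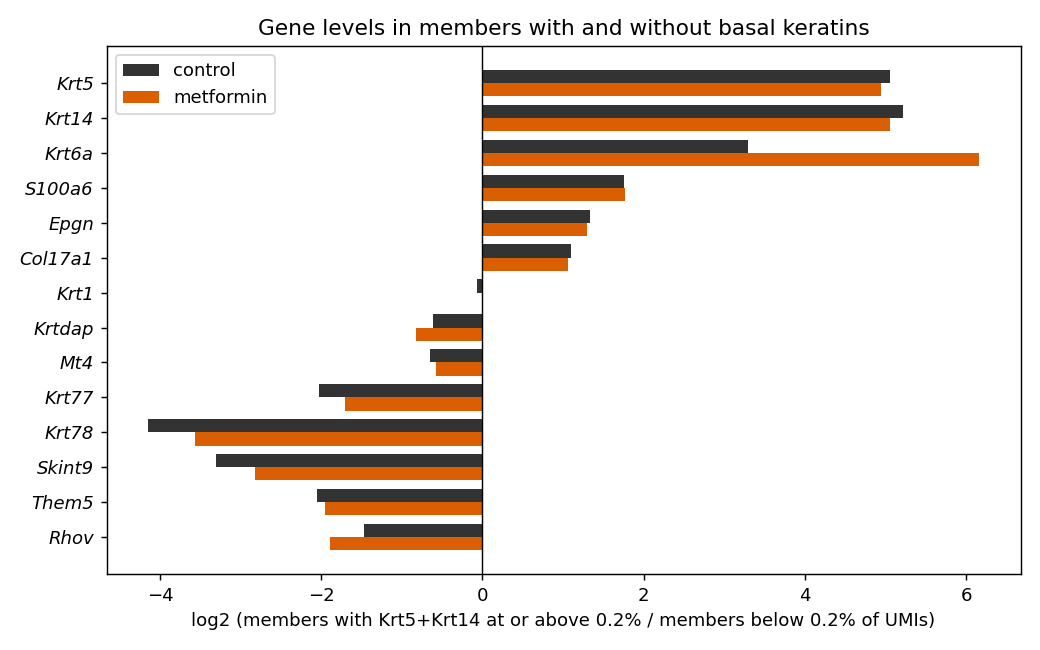
Log2 difference in CPM (horizontal axis) between members with Krt5 and Krt14 at or above 0.2% of UMIs and members below it, for 14 genes in control (black) and metformin (orange); Krt5 and Krt14 made the split. S100a6 lies at 1.76 and 1.77, Krt78 at -4.15 and -3.57, and each gene but Krt1, which is near 0, lies on one side in both libraries.

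Members were also placed in bins by their share of Krt1 and Krt10, the genes of the rule. Bins of 1 to 2% held 325 control and 290 metformin members, bins of 2 to 5% held 219 and 108, and 11 and 5 members lay above 5%. From the lower to the higher bin Krt77 went from 2270 to 5210 CPM in control and from 3340 to 9274 in metformin. Krt5 went from 1560 to 339 CPM and from 1562 to 273. Calm4, a calmodulin-like protein of the epidermis, went from 4725 to 7235 and from 4410 to 7066 CPM, and Dsc1 from 12.2 to 32.4 and from 10.2 to 47.0. Krtdap moved less, from 11067 to 14155 and from 9929 to 13679 CPM. Above 5%, Krt77 was at 5768 and 3291 CPM and Calm4 at 10885 and 5484, so the metformin values there, from 5 cells, were below those of the 2 to 5% bin.

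Between the libraries the members' expression was close for most genes. Of 8237 genes with at least 50 UMIs over both, 89.6% lay within 0.5 on the log2 scale, with a median of -0.001 for metformin over control. In metformin 46 genes were at least 2-fold higher (0.558%) and 65 at least 2-fold lower (0.789%), the background for the lists below. Of all 8237 genes, 4108 were higher and 4129 lower by any amount, the background for the counts of direction. Summed depth was 5077956 UMIs in control members and 3464607 in metformin members.

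The ratios of the 6 markers, metformin over control, lay between 0.790 and 1.38. Krt77 was the one that was higher in metformin, at a ratio of 1.38 (interval 1.35 to 1.41). When Krt79 alone was limited its log2 ratio was 0.00 in place of 0.46, and it was 0.28 in basal and 0.08 in Cst6-rich cells. Cst6-rich cells held more Krt77 than members and were more numerous in control. The part of this in the Krt77 ratio was not tested. Krt1 had a ratio of 0.838 (0.825 to 0.852), Krtdap 0.881 (0.870 to 0.893), Krt10 0.915 and Sbsn 0.929. Within bins of equal Krt1 and Krt10 share, Krt10 and Sbsn turned to log2 ratios of 0.05 and 0.04. The 3 metallothioneins were lower together. Mt4 had a ratio of 0.790 (0.771 to 0.810), Mt1 of 0.738 (0.720 to 0.755) and Mt2 of 0.703 (0.676 to 0.731). In basal cells the log2 ratios of Mt4, Mt1 and Mt2 were 0.25, -0.21 and -0.14, and in Cst6-rich cells they were -0.02, -0.02 and -0.09. The difference between classes was not tested.

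Cholesterol synthesis genes were lower in metformin members without exception. All 15 had ratios under 1, with a median log2 of -0.53, and 3 were past 2-fold. Across the 18 other settings the median lay between -0.70 and -0.36. Fdps measured 430 and 231 CPM (ratio 0.538, 0.495 to 0.583). Idi1, the isopentenyl diphosphate isomerase, measured 260 and 130 (ratio 0.501, 0.449 to 0.558). Lss, lanosterol synthase, measured 17.7 and 8.08 (0.456, 0.287 to 0.704) and Nsdhl, a sterol dehydrogenase, 29.1 and 13.9 (0.475, 0.336 to 0.662). Across the other settings the log2 ratio ran from -2.04 to -0.30 for Lss and from -1.44 to -0.30 for Nsdhl. The median was -0.42 in basal and -0.54 in Cst6-rich cells, with all 15 lower in each, so the lower levels were not particular to members. Other lipid genes were lower too. Scd2, a stearoyl-CoA desaturase, had a ratio of 0.431 (0.358 to 0.517). Fabp5, the epidermal fatty acid binding protein, measured 3252 and 1927 CPM (0.592, 0.576 to 0.610), and its log2 ratio was 0.08 in basal and -0.58 in Cst6-rich cells. The 16 measured barrier lipid genes had a median of -0.09.

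Glycolysis genes were lower in 12 of 13, with a median log2 of -0.45. Slc2a1, the glucose transporter, measured 38.8 and 20.8 CPM (ratio 0.536, 0.403 to 0.705), Pgk1 250 and 149 (0.596, 0.537 to 0.660), Hk2, hexokinase, 67.2 and 40.1, and Tpi1 303 and 196. Gapdh, at 754 and 645 CPM, differed less (0.855, 0.811 to 0.901), and Gpi1 was at 159 and 167. The medians in basal and Cst6-rich cells were -0.36 and -0.27, and that in members with Krt5 and Krt14 at 0.2% or more was -0.24. Nuclear genes of complex I, the first complex of the respiratory chain, were near the median of all genes, with 8 of 15 higher and a median of 0.02. AMPK subunits and energy stress genes had 8 of 11 higher and a median of 0.08, with Txnip at 117 CPM in both libraries.

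All 15 immediate early genes were lower, with a median of -0.41 and none past 2-fold. Egr1 measured 496 and 308 CPM (ratio 0.621, 0.578 to 0.668), Atf3 1894 and 1386, Zfp36 991 and 724, and Nr4a1 315 and 220. These genes are known to respond to tissue dissociation, and handling of the tissue cannot be told apart from agent. The medians in basal and Cst6-rich cells were -0.19 and -0.32.

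Among cytokines and chemokines 8 of 11 were lower and 3 were past 2-fold. Tslp, an epithelial cytokine of type 2 immunity, had 193 UMIs in control members and 47 in metformin members, or 38 and 13.6 CPM (ratio 0.357, 0.254 to 0.493). Its log2 ratio was -1.37 in basal and -1.11 in Cst6-rich cells, and ran from -1.62 to -0.65 in members across the other settings. Ccl20, the ligand of Ccr6, measured 96.7 and 41.6 CPM (0.430, 0.354 to 0.519), with up to 53 of 491 control UMIs in 1 cell, and a log2 ratio of 0.14 in members with Krt1 and Krt10 at 2% or more. Cxcl14, a chemokine of healthy epidermis, was higher, at 57.7 and 99 CPM (1.72, 1.46 to 2.01). The list median was -0.58, and it lay between -0.58 and -0.03 across the 18 other settings. In basal and Cst6-rich cells it was -0.08 and -0.10. In members with Krt5 and Krt14 under 0.2% and at 0.2% or more it was -0.23 and -0.04.

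**Figure D4:**
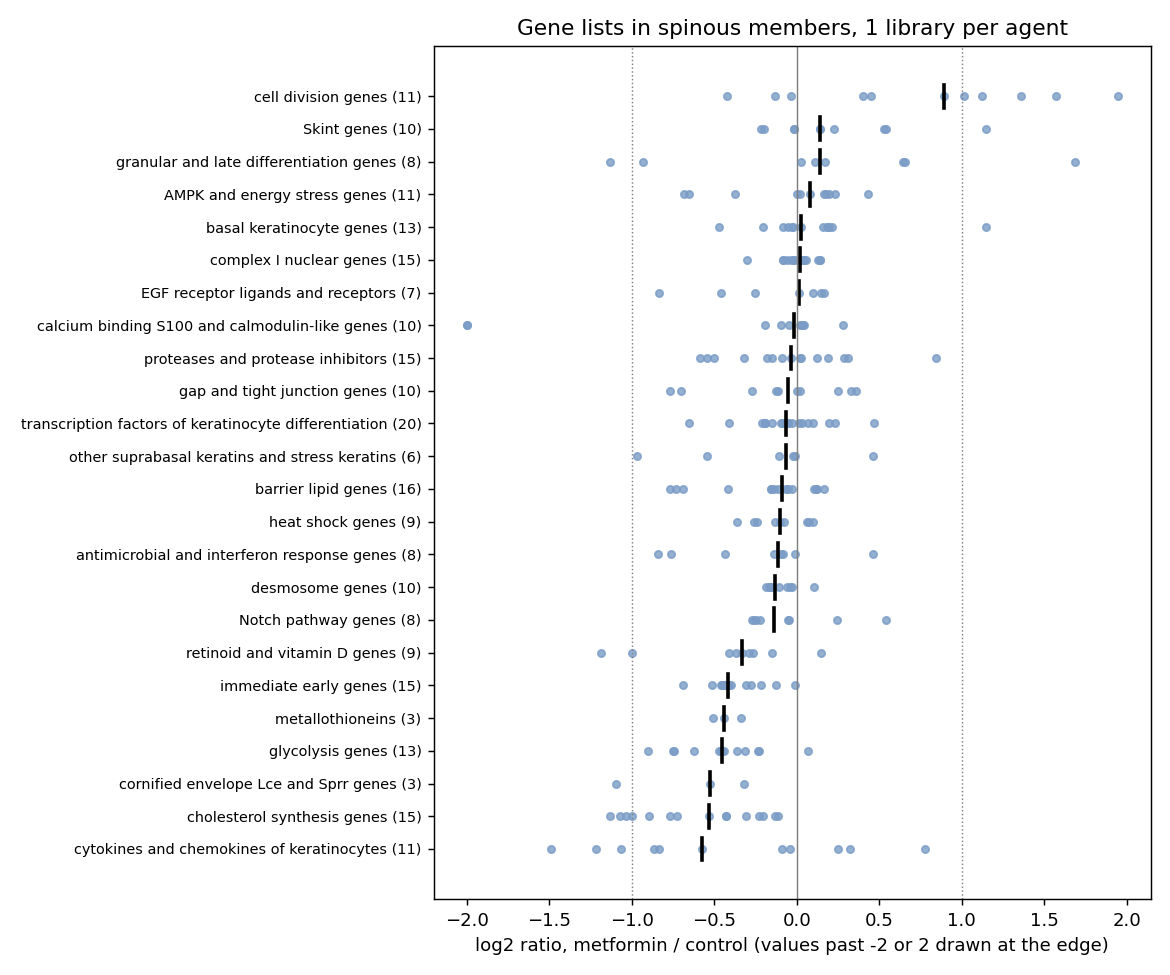
Log2 ratio of metformin to control in members (horizontal axis) for each tested gene of 24 lists, with the number tested in brackets and the list median as a bar; dotted lines mark 2-fold and S100a8 and S100a9 are drawn at the edge. Cholesterol synthesis, glycolysis and immediate early genes lie left of 0 (medians -0.53, -0.45 and -0.41), complex I genes around it (0.02).

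Further genes were among those with the lowest ratios at 100 UMIs and 50 CPM or more. Thbs1, thrombospondin 1, had a ratio of 0.400 (0.316 to 0.502), C2cd4b of 0.406 (0.315 to 0.518), Icam1, an adhesion molecule, of 0.457, Irf1, an interferon response factor, of 0.460, F3, tissue factor, of 0.465 and Phlda1 of 0.489. All of these had log2 ratios below 0 in basal and Cst6-rich cells too. Across the other settings the log2 ratio in members ran from -1.61 to -0.36 for Thbs1, from -1.54 to -0.89 for C2cd4b, from -1.63 to -0.53 for Icam1 and from -1.44 to -0.36 for Phlda1. Sprr1b had 995 and 318 UMIs (0.468, 0.412 to 0.532), and its log2 ratio was 0.01 in members with Krt5 and Krt14 at 0.2% or more. Cd74, the invariant chain of MHC class II and a gene of Langerhans cells, had 286 UMIs in control and 33 in metformin members. Of the control UMIs 180 lay in 1 cell, and without 19 control and 17 metformin members that carried other cell types' genes the log2 ratio was 0.45 in place of -2.56. The members left out included 3 control and 0 metformin members with at least 5 Cd74 UMIs, so Cd74 itself helped to choose them. S100a9 likewise had 212 of its 214 control UMIs in 1 cell. The 9 myeloid and Langerhans cell markers summed to 111 CPM in control members and 24.8 in metformin members, fibroblast markers to 1202 and 1044, T cell markers to 153 and 163, and the 5 melanocyte markers to 0.197 and 6.06, with 4 of them at 0 in control. The 19 hair shaft and inner root sheath markers, Gata3 among them, summed to 234 and 367 CPM. Of these, Krt25 had 1 and 47 UMIs, Krt28 0 and 33, Krt73 0 and 38, and Krt71 0 and 16. The part of these cell types in the ratios was not tested.

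Krt15, a keratin of basal and follicle stem cells, and Gadl1 had the highest ratios at 100 UMIs and 50 CPM or more. Krt15 (chr11:100131758-100135928, minus strand) measured 325 CPM in control members (310 to 341) and 721 in metformin members (693 to 750), a ratio of 2.22 (2.08 to 2.36). It was detected in 36.8% of control and 59.3% of metformin members. After thinning the shares were 21.3% and 43.1%, against 3.77% and 6.12% of T cells, which were held under 0.2% Krt5 and Krt14. The level was higher in metformin in basal cells, at 2399 and 3756 CPM, and in Cst6-rich cells, at 116 and 223. Krt5 measured 1087 and 1262 CPM (ratio 1.16, 1.11 to 1.21) and Krt14 2596 and 2250 (0.867). The median of the 13 basal genes was 0.03 in members, 0.46 with Krt79 alone limited and -0.15 in basal cells. In Cst6-rich cells it was 0.54, with all 13 higher in metformin. Gadl1, a decarboxylase, measured 34.1 and 83.1 CPM (2.44, 2.01 to 2.96), with log2 ratios of 1.02 in basal and 1.27 in Cst6-rich cells.

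Proteases and late genes were mixed. Klk8, an epidermal kallikrein, measured 168 and 301 CPM (ratio 1.79, 1.64 to 1.97), with log2 ratios of 0.46 in basal and 0.33 in Cst6-rich cells. Klk7 had a ratio of 3.22 (2.39 to 4.38) from 66 and 145 UMIs, and Ivl of 1.58 (1.18 to 2.11). With Krt79 alone limited these 2 became 0.10 and -0.49 on the log2 scale. Skint9 had a ratio of 1.44 (1.22 to 1.70), Skint6 of 1.46 and Skint10 of 2.21 (1.55 to 3.17), while the median of the 10 measured Skint genes was 0.14. With Krt79 alone limited Skint10 had a log2 ratio of 0.36 and Skint9 of 0.15. Gata3, a transcription factor of epidermis and inner root sheath, measured 223 and 308 CPM (1.38, 1.27 to 1.5). Ovol1 measured 408 and 259 CPM (0.636, 0.587 to 0.688) and was lower in basal and Cst6-rich cells as well, with log2 ratios of -0.48 and -0.72.

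Hal, histidase, which makes urocanic acid in the upper epidermis, had a ratio of 1.86 (1.51 to 2.29) and Orm1, an acute phase protein, of 1.80 (1.56 to 2.09). With Krt79 alone limited their log2 ratios were 0.03 and -0.09. Stmn1, a microtubule protein of dividing cells, had a ratio of 2.18 (1.86 to 2.56), Hmgn2 of 1.74, Tpm1 of 1.54, and Lgals1 of 1.97, with 133 of its 526 metformin UMIs in 1 cell. AC149090.1 and Gm26917, at 1.72 and 1.62, completed the 12. Cell division genes had a median of 0.90 with 5 of 11 past 2-fold, but their counts were small. Mki67 had 20 UMIs in control and 35 in metformin members (2.56, 1.44 to 4.69) and Birc5 had 19 and 50. The median was 0.26 without called doublets and -0.15 among cells with 300 to 3000 genes and at most 8% mitochondrial UMIs, so its sign was not kept.

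**Figure D5:**
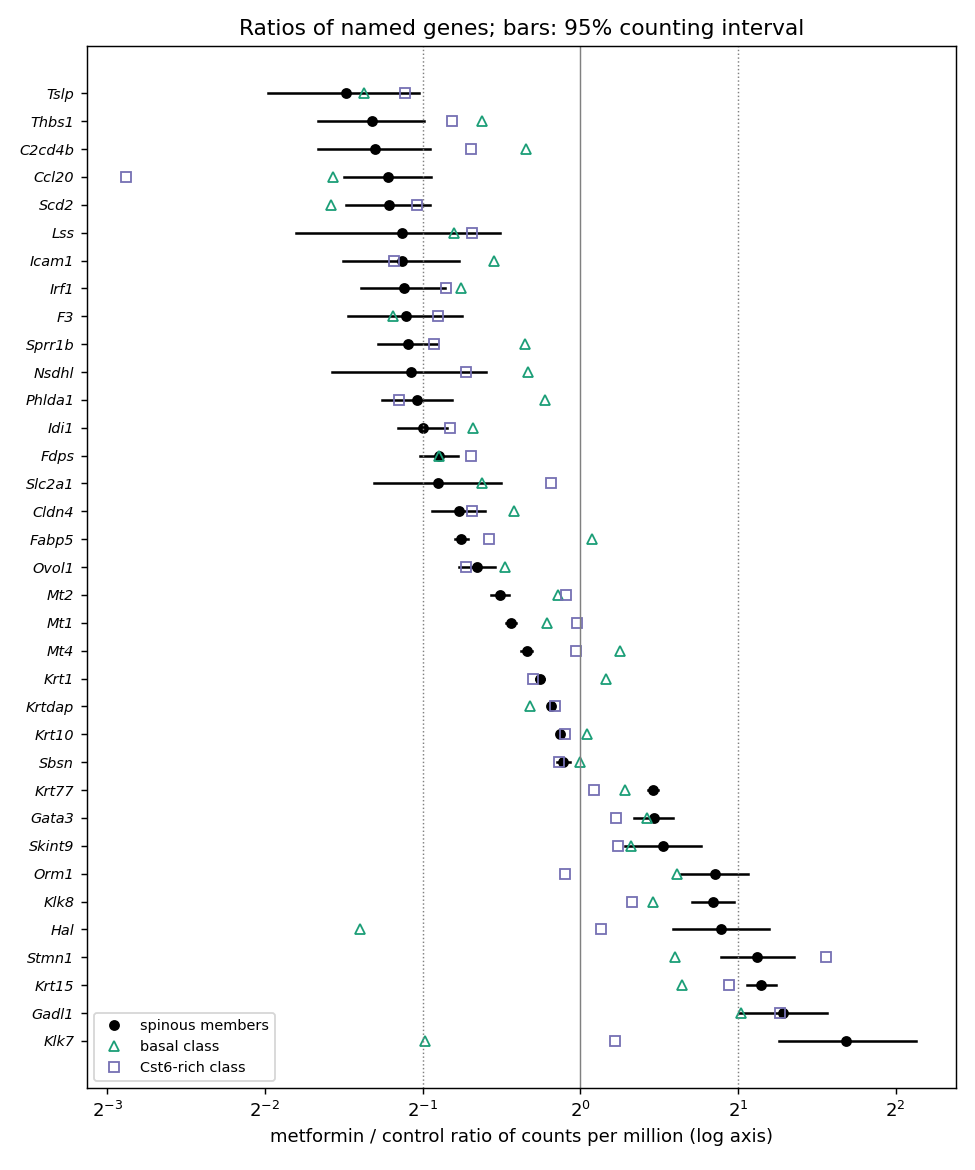
Ratio of metformin to control CPM (log axis) for 35 named genes, as black points with 95% counting intervals in members, triangles in basal cells and squares in Cst6-rich cells; dotted lines mark 2-fold. The triangles and squares lie left of 1 for Tslp, Scd2 and the cholesterol genes, while Krt15 and Gadl1 lie right of 1 in all 3 classes and Hal and Klk7 do not.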

How the data were processed

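The authors deposited UMI counts per gene and barcode for each library, made with Cell Ranger 4.0.0 per the matrix headers, on GRCm38 (mm10) per the submitters' processing notes. How barcodes were filtered before deposit, and which annotation was used, is not given in the sources used here, and no cell annotation was used. The article that cites the series describes another treatment design and was read for style. Barcodes were filtered and members chosen as stated in the report, UMIs were summed per class and library, and CPM and ratios were computed in Python 3.11.15 with numpy 2.4.6, scipy 1.17.1 and pandas 2.3.3. Intervals were exact Poisson for CPM, exact conditional binomial for ratios and Clopper-Pearson for shares, and a count of 0 was set to 3 counts. Doublet calls came from Scrublet (scanpy 1.11.5, expected rate set to 8%) and were dropped as an alternative. Genes with 50 UMIs over both libraries' members entered the ratios. Sums and intervals were tested on simulated data. Il36g was not matched in the files, and Aldoa was taken from the identifier with counts. Gene positions are from GENCODE M21, and promoters from RefSeq.

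Members and gene lists were chosen with earlier results of these data known. Named genes were the markers, the 20 highest and 10 lowest over basal cells, 10 each way over granular cells, the 12 highest and lowest between libraries at 100 UMIs and 50 CPM without mitochondrial, ribosomal and haemoglobin genes, and the extreme and most abundant genes of each list. Genes against Cst6-rich cells and by Krt5 and Krt14 were ranked after seeing the data. Some named genes are not reported here. Depth per library and precision are given in the report. Alternatives changed cell filters, doublets, the limits on Krt1 and Krt10, Lor, Flg and Flg2, and Cst6, the minimum count, and weighting by cell.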

Additional observations from a re-analysis of the deposited data

Results flagged for a closer look

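The ratio of metformin to control in members had the opposite sign to that in a neighbouring class for 3 of the genes named for the highest or lowest ratios, with both counting intervals apart from 1. Each class is 1 library per agent, so the difference was not tested. Cd74 had a log2 ratio of -2.56 in members and 0.30 in Cst6-rich cells, and 180 of its 286 control UMIs lay in 1 member. Hal had a log2 ratio of 0.89 in members and -1.39 in basal cells, where its level was 1.98 and 0.753 CPM. Orm1 had a log2 ratio of 0.85 in members and -0.10 in Cst6-rich cells. Among other genes described above, Klk7 had a log2 ratio of 1.69 in members and -0.98 in basal cells. Ivl stood at 0.66 in members, -0.64 in basal and -0.41 in Cst6-rich cells. Fabp5 stood at -0.76 in members and 0.08 in basal cells, Mt4 at -0.34 and 0.25, and Krt1 at -0.25 and 0.16. Krt1 helped to choose both classes, so its values are a description only.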

How the results depend on the processing

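No paired analysis was possible because each agent has 1 library. The member share, 1.37 points lower in metformin, was lower in all 10 other settings. It was -0.41 points with Krt1 and Krt10 at 0.5%, -0.73 under the strict filter, -2.06 with Krt79 and Cst6 under 0.05%, -5.80 with Krt79 alone limited, and -1.03 to -1.37 in the others. List medians stayed between the medians of their genes' main counting interval bounds in 374 of 396 checks. Gene ratios stayed inside their own main counting interval in 852 of 1104. Settings by Krt79 alone, Cst6 share, other cell types' genes and Krt5 and Krt14 were added after seeing the data.

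Genes 2-fold higher (46) numbered 23 with 300 to 3000 genes and 8% mitochondrial UMIs, 29 without doublets, 96 with Krt1 and Krt10 at 0.5%, 168 and 5 with 20 and 200 UMIs, 132 with Krt79 alone, 70 with Krt79 and Cst6 under 0.05%, and 30 and 22 under and above the Krt5 and Krt14 line. Genes 2-fold lower (65) numbered 108 weighting cells equally, 178 and 16 with 20 and 200 UMIs, and 121 with Krt79 alone.

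Signs turned for 31 gene ratios and 40 list medians over all settings. Those whose main interval lay apart from no change were as follows, in log2. Under the strict filter the cell division median was -0.15 and Perp 0.0020. With Krt1 and Krt10 at 0.5%, Cd74 was 0.41. At 2%, the retinoid median was 0.062, Krt10 0.10, Sbsn 0.16, Ccl20 0.14, Cd74 0.17, Ube2c -0.31, Cyp26b1 0.39, Dsg1a 0.084 and Dsp 0.023. Within keratin bins Krt10 was 0.051 and Sbsn 0.043. With Krt79 alone, Orm1 was -0.095, Klk5 -0.14 and Ivl -0.49. Without other cell types' genes Cd74 was 0.45. Above the Krt5 and Krt14 line Sprr1b was 0.011 and Cldn4 0.11. Among the rest, whose main interval held no change, were Elovl4 at 0.30, Acer1 at 0.025, desmosome genes at 0.054 and complex I genes at -0.082, all at 2% Krt1 and Krt10, Skint genes at -0.14 above the Krt5 and Krt14 line, and Notch genes at 0.024 with Krt79 alone. The cause was not tested. With 1 library per agent, counting error is the one error known here.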

Other observations

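Further gene lists were close to the median of all genes between the libraries. Desmosome genes were lower in metformin members in 9 of 10, by little, with a median log2 ratio of -0.13. Dsp, desmoplakin, which ties desmosomes to keratin, had a ratio of 0.897, Dsg1a of 0.893 and Perp, a desmosome protein and p63 target, of 0.971. Gap and tight junction genes had 5 of 10 higher and a median of -0.05, with Cldn4, a tight junction claudin, at 203 and 119 CPM (ratio 0.587). Heat shock genes had a median of -0.10, Notch pathway genes of -0.14 with the Notch target Nrarp at 63.6 and 92.7 CPM (1.46, 1.24 to 1.71), and transcription factors of differentiation of -0.06. EGF receptor ligands and receptors had a median of 0.01, with Areg, amphiregulin, at 56.1 and 31.5 CPM (0.561). Antimicrobial and interferon response genes were lower in 7 of 8, with a median of -0.11. S100 and calmodulin-like genes had a median of -0.01, proteases and their inhibitors of -0.03 with Klk5 at 1.56 (1.21 to 2.02), and other keratins of -0.06.

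Retinoid and vitamin D genes were lower in 8 of 9, with a median of -0.33. Cyp26b1, which degrades retinoic acid, measured 42.7 and 18.8 CPM (ratio 0.439, 0.327 to 0.582), from 217 and 65 UMIs, of which up to 28 lay in 1 cell. Its log2 ratio was -0.97 in basal and -1.54 in Cst6-rich cells. Of the 21 Lce and Sprr genes 14 had no UMI in control members and 16 had none in metformin members, and the 3 with 50 UMIs had a median of -0.53. Granular and late genes had 6 of 8 higher and a median of 0.14, which was -0.33 with Krt79 alone limited. Ube2c, of the cell division list, had 32 UMIs in control and 65 in metformin members, up to 22 of them in 1 cell.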
